A study of Mus musculus with 20 samples.

Results

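The transcripts described here are those of 10 genes that control how a cell answers growth signals and stress: Myc, Jun, Junb, Fos, Egr1, Atf3, Ier2, Ier3, Ccnd1 and Foxm1. They were taken by gene symbol, whatever their values, and comprise 19 of the 30146 probes and 10 of the 21450 gene symbols of the assay. RNA came from the livers of 20 male Balb-C mice aged 10 to 12 weeks, which received Nafion byproduct 2, a fluorinated ether sulfonic acid from the making of a fluoropolymer membrane, by gavage for 7 days. The doses were 6, 3, 0.3 and 0.03 mg/kg per day, and the remaining group was a vehicle control at 0 mg/kg, each with 4 individual animals. The treatment protocol gives deionized water as the vehicle whereas the control titles carry the word DMSO, and which was given is not settled here. No group carried an engineered allele.

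TempO-Seq counts a ligated pair of detector oligonucleotides for each target stretch of RNA, so the levels of different probes cannot be set against each other and each probe is compared only with itself across livers. Levels are in CPM, the count divided by the scaled library total. The smallest library held 6823518 counts and the largest 10310931, and 3 counts in a single library equal between 0.251 and 0.510 CPM. Replicate 4 at 6 mg/kg and replicate 4 at 3 mg/kg stood apart from the rest of their own groups, with mean correlations to them of 0.940 and 0.870. The other libraries of these groups were at 0.966 to 0.970 at 6 mg/kg and 0.942 to 0.945 at 3 mg/kg. Wells of the 6 and 3 mg/kg groups lay in plate row B and those of the 0.03 mg/kg and control groups in row A, with 0.3 mg/kg in both. Transcripts of all 10 hepatocyte marker genes on the assay were detected in every group, among them Alb at 6047 ± 2317 CPM at 6 mg/kg and 10667 ± 620 CPM in controls (SD, n = 4 each).

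Immediate-early genes are transcribed within minutes of a growth factor, cytokine or stress signal, without new protein synthesis, and most encode transcription factors. Jun, Junb, Fos and Atf3 are basic leucine zipper proteins that pair with each other to form AP-1 and related dimers, Egr1 is a zinc finger factor driven through the ERK kinase pathway, and Myc raises the transcription of genes for ribosome production and metabolism. Ccnd1 encodes cyclin D1, which carries the growth signal into the cell cycle, and Foxm1 drives the transcription of mitotic genes later in the cycle. In liver they are known for their burst after partial hepatectomy.

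Jun and Junb, neighbours in the same family, are shown with the 250 bases before their start sites because their transcripts changed in opposite directions at 6 mg/kg. The sequences are RefSeq's for GRCm38.p6, 5′ to 3′ on the gene's own strand, which is the minus strand for both. The Jun window is chr4:95052223-95052472 and the Junb window is chr8:84978749-84978998, and each sequence ends at the base before RefSeq's start site. Capitals mark matches to the motifs TGACNTCA, TGACG and CCAAT.

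Jun: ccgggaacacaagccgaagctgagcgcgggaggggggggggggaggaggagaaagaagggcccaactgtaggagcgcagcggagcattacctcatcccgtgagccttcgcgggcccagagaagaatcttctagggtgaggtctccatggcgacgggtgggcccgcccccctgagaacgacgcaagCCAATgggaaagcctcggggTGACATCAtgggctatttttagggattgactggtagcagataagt

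Junb: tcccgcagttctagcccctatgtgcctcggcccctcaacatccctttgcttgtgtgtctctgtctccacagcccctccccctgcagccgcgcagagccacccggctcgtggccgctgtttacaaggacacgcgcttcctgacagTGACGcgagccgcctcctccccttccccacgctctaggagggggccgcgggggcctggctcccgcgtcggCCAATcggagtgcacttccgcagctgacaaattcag

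The motifs were searched on both strands, and TGACNTCA holds TGACG where N is G. The Jun window held TGACATCA, a match to TGACNTCA that lies from 45 to 38 bases before the start, and CCAAT from 65 to 61 bases before it. The Junb window held TGACG from 106 to 102 and CCAAT from 36 to 32 bases before its start. Of all 32851 RefSeq promoters of this length, 7.49% held TGACNTCA, 17.8% held TGACG and 33.8% held CCAAT. Entries on chromosome 18, where Egr1 lies, were left out when the promoters of the set were read. RefSeq promoters were read for 5 of the 10 genes. In the other 3 of them, Fos held TGACG from 129 to 125 and from 66 to 62 and TATAAA from 33 to 28 bases before the start, Atf3 held TGACG on the opposite strand from 7 to 3 bases before it, and Ier3 held CCAAT from 244 to 240 and from 175 to 171 bases before it. TATAAA was in 12.4% of all promoters, and the CArG box, the serum response element core, was in 1.47% of them and in none of these 5 windows. Bases more than 250 before the start were not searched, and Egr1 was not among the 5, so the absence holds for these windows alone. A match describes the letters only.

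The set moved in both directions. At 6 mg/kg both Jun probes and 1 of the 3 Myc probes rose relative to controls, by between 2.03-fold and 8.29-fold, while Junb, Egr1 and Ier2 fell by between 2.20-fold and 6.13-fold. Junb, Egr1 and Ier2 were also called lower at 3 mg/kg, where no probe was called higher. At 0.3 and 0.03 mg/kg no probe was called. Fos, Atf3, Ier3, Ccnd1 and Foxm1 had too few counts to enter the main test, yet the Ccnd1 probes and 1 Atf3 probe were counted more often at 6 mg/kg in every library.

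Of the 19 probes, 8 passed the filter of about 10 counts in at least 4 libraries, and these cover 5 of the 10 genes. For 6 mg/kg against control, edgeR's quasi-likelihood test at an adjusted p under 0.05 (Benjamini-Hochberg over all 14122 probes tested) called 3 of the 8 higher and 3 lower. Over all 14122 probes it called 20.3% in either direction, 11.6% higher and 8.73% lower. The median log2 fold change over all probes was 0.01. The 4 libraries at 6 mg/kg lay above every control library for 3 of the 8 probes and below every control library for 3, while 13.2% and 13.6% of all probes lay so. Myc probe 30907 reached 10 counts only in libraries at 3 and 6 mg/kg, and Egr1 probe 30209 only in control and 0.03 mg/kg libraries, so each passed the filter through the groups where it was high and had to differ. The calls for both Jun probes, Junb and Ier2 do not have that limit.

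**Figure D1:**
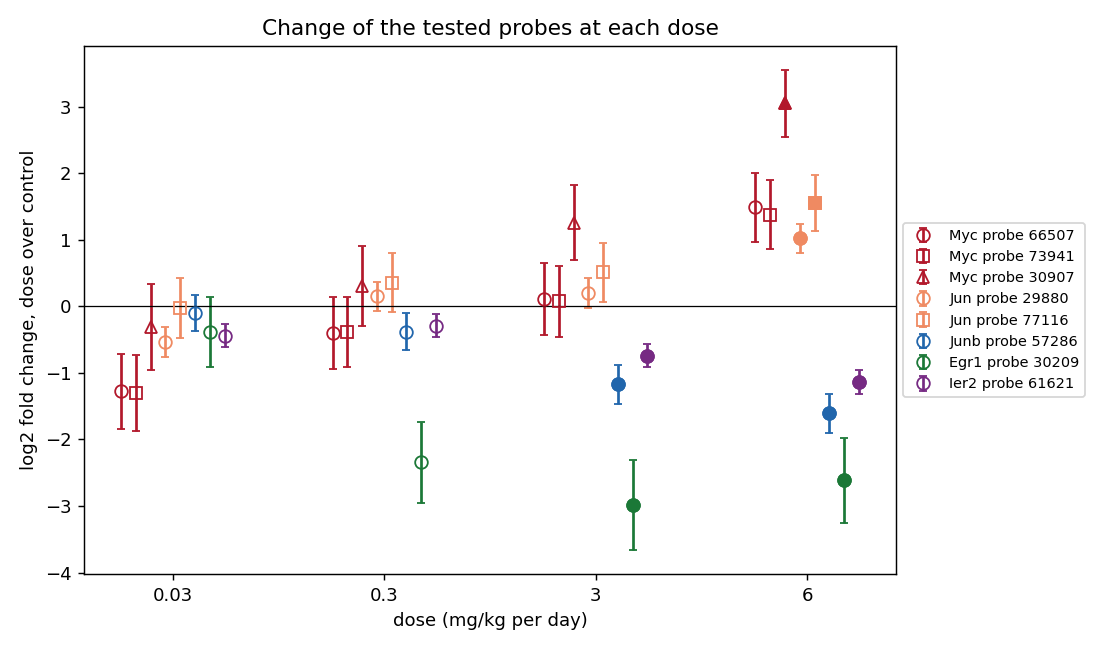
The log2 fold change over control (vertical axis) of the 8 tested probes is drawn at each dose in mg/kg per day (horizontal axis), with bars of 1 standard error and filled symbols where the edgeR adjusted p was under 0.05. Filled symbols appear at 3 mg/kg for Junb, Egr1 and Ier2, all below 0, and at 6 mg/kg for these and for both Jun probes and Myc probe 30907, which lie above 0.

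Jun encodes the main activating partner of AP-1 and is needed for hepatocytes to divide after liver injury. Probe 29880 lay higher in every liver at 6 mg/kg than in any liver of the other groups. It (gene at chr4:95049034-95052222, minus strand, GRCm38) was at 14.5, 17.0, 15.0 and 19.6 CPM in the 4 livers at 6 mg/kg, against 8.10, 4.49, 12.2 and 7.51 CPM in controls. Every liver at 6 mg/kg lay above every control. On the log2 scale the fold change was 1.02 (SE 0.22, edgeR adjusted p = 0.00217). Probe 77116 was at 3.83, 3.53, 2.60 and 7.39 CPM at 6 mg/kg and at 1.62, 1.26, 2.04 and 0.907 CPM in controls, again without overlap. Here the log2 fold change was 1.56 (SE 0.42, edgeR adjusted p = 0.0120). The highest of the 4 was replicate 4, and without it the log2 fold change was 1.14 and the edgeR adjusted p was 0.0716.

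Jun was not called against control at any dose below 6 mg/kg. Probe 29880 averaged 8.07 ± 3.15 CPM in controls, 5.58 ± 0.624 at 0.03, 9.0 ± 1.22 at 0.3, 9.31 ± 1.26 at 3 and 16.5 ± 2.31 CPM at 6 mg/kg (SD, n = 4 each). All 4 livers at 6 mg/kg also lay above all 4 at 3 mg/kg, where the probe was at 8.42, 9.45, 8.33 and 11 CPM. The log2 fold change between these doses was 0.82 (SE 0.22, edgeR adjusted p = 0.0259). Among all probes, 3.96% were called higher at 6 than at 3 mg/kg, and of the 8 tested probes of the set 2 were, this one and Myc probe 30907. The Jun call was lost when any of 5 libraries was left out, with an edgeR adjusted p of 0.103 and a log2 fold change of 0.75 without 3 mg/kg replicate 1, 0.0683 and 0.83 without 3 mg/kg replicate 2, 0.0702 and 0.75 without 3 mg/kg replicate 3, 0.0611 and 0.81 without 6 mg/kg replicate 2, and 0.0852 and 0.70 without 6 mg/kg replicate 4. On the 8 libraries alone the edgeR adjusted p was 0.103. Probe 77116 stood at 1.79, 0.787, 1.19 and 4.38 CPM at 3 mg/kg, where the high value again belonged to replicate 4. Its log2 difference of 1.04 between 6 and 3 mg/kg had an edgeR adjusted p of 0.119, which became 0.00234 at a log2 difference of 1.82 without 3 mg/kg replicate 4.

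Junb encodes an AP-1 subunit that is a weaker activator than Jun and can restrain cell division. Its transcript fell with dose. The single probe (gene at chr8:84974484-84978718, minus strand, GRCm38) was at 3.59, 2.92, 1.89 and 3.39 CPM at 6 mg/kg, against 5.48, 10.7, 11.7 and 8.16 CPM in controls. The groups did not overlap, and the log2 fold change was -1.61 (SE 0.29, edgeR adjusted p = 0.000589). Livers at 3 mg/kg were at 5.94, 3.04, 3.91 and 3.24 CPM, where 1 liver lay above the lowest control.

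Junb at 3 mg/kg had a log2 fold change over control of -1.17 (SE 0.29, edgeR adjusted p = 0.0398). Here 3 of the 8 tested probes of the set were called, all lower, and 0 higher. Over all 14122 probes edgeR called 1.49% in either direction, 1.11% higher and 0.382% lower. Of the 3, the Egr1 probe passed the filter only through groups where it was high, so its call is a description. The Junb call at 3 mg/kg was lost, at edgeR adjusted p between 0.0840 and 0.151, when control replicate 2, 3 or 4 or 3 mg/kg replicate 2, 3 or 4 was left out, and the log2 fold change then ran between -1.20 and -1.0. It was lost as well with upper quartile scaling (edgeR adjusted p = 0.0513), on the 8 libraries alone (edgeR adjusted p = 0.253) and with limma-voom (adjusted p = 0.0593). The dose means were 9.01 ± 2.79 CPM in controls, 8.40 ± 2.59 at 0.03, 6.94 ± 1.32 at 0.3, 4.03 ± 1.32 at 3 and 2.95 ± 0.762 CPM at 6 mg/kg (SD, n = 4 each). From 3 to 6 mg/kg the log2 difference of -0.43 (SE 0.31) did not pass, with an edgeR adjusted p of 0.415.

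**Figure D2:**
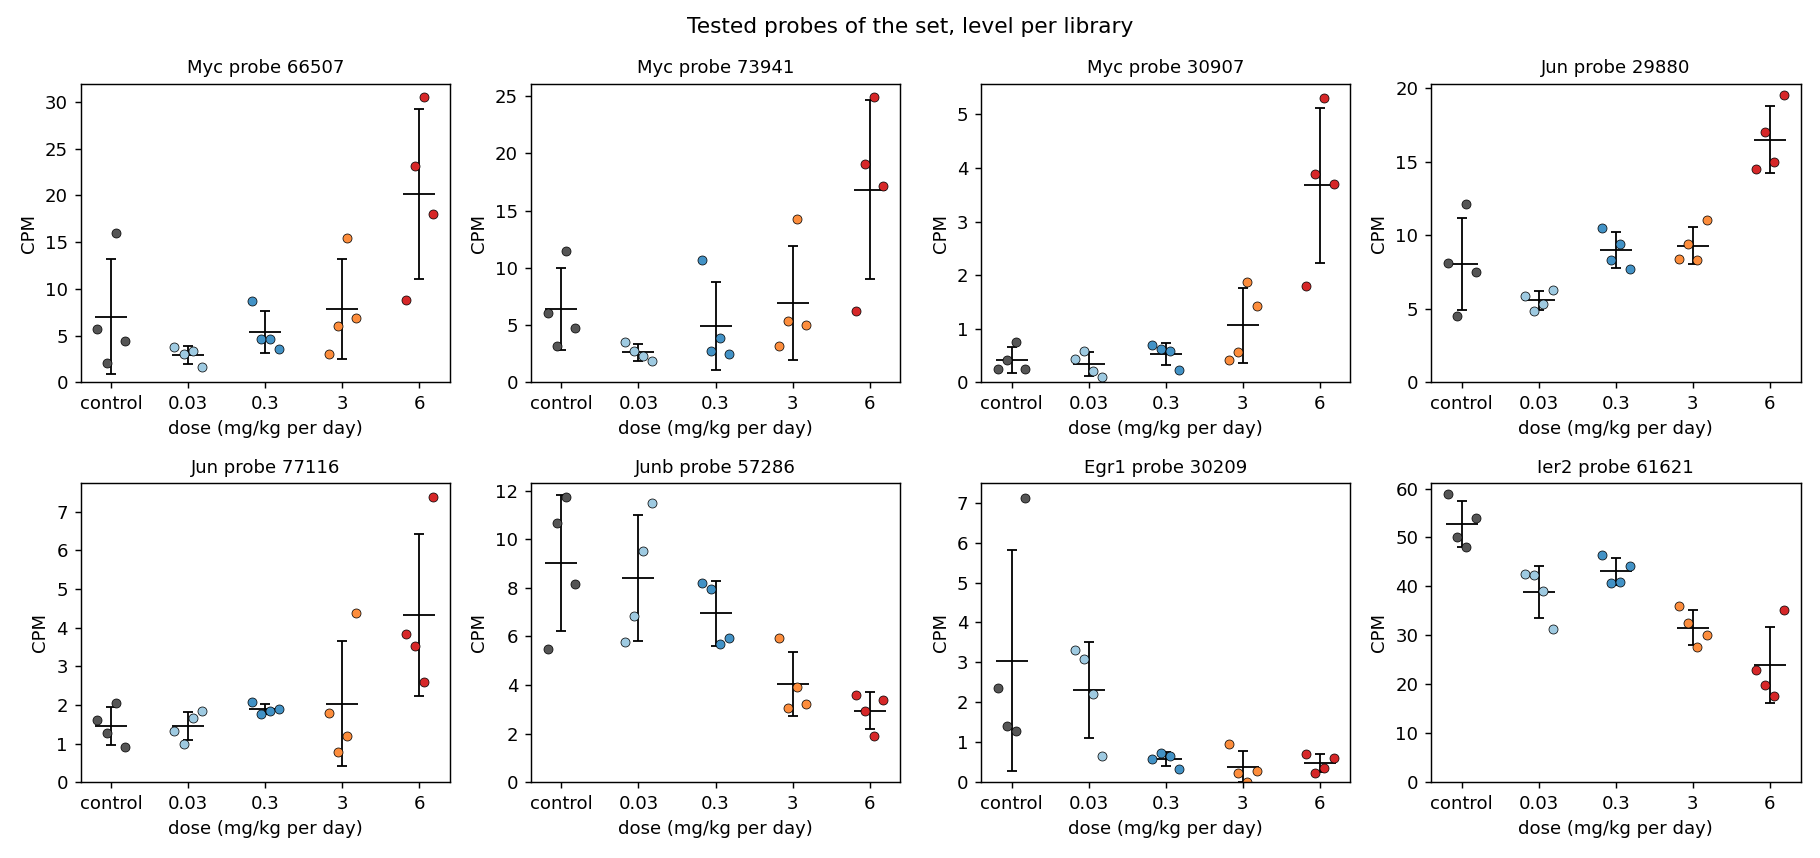
Each panel shows the CPM (vertical axis, own scale) of 1 tested probe in the 20 livers by dose in mg/kg per day, with points for single livers and bars for the mean ± SD of 4. Jun and Myc means are highest at 6 mg/kg, Junb and Ier2 points run lower at the upper doses, and Egr1 points are under 1 CPM at 0.3 mg/kg and above.

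Because both genes were read in the same library, their counts can be set against each other within a liver without any scaling between libraries; this ratio was chosen after the values were seen and has no test. The count of Jun probe 29880 over that of Junb lay between 0.421 and 1.48 in controls with a median of 0.979, and between 0.547 and 1.02 at 0.03 mg/kg. It lay between 1.05 and 1.66 at 0.3 mg/kg, 1.42 and 3.41 at 3 mg/kg, and 4.03 and 7.94 with a median of 5.80 at 6 mg/kg. Every liver at 6 mg/kg lay above every other liver. The ratio of these probes tracks unequal change of the transcripts, not their relative amounts.

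**Figure D3:**
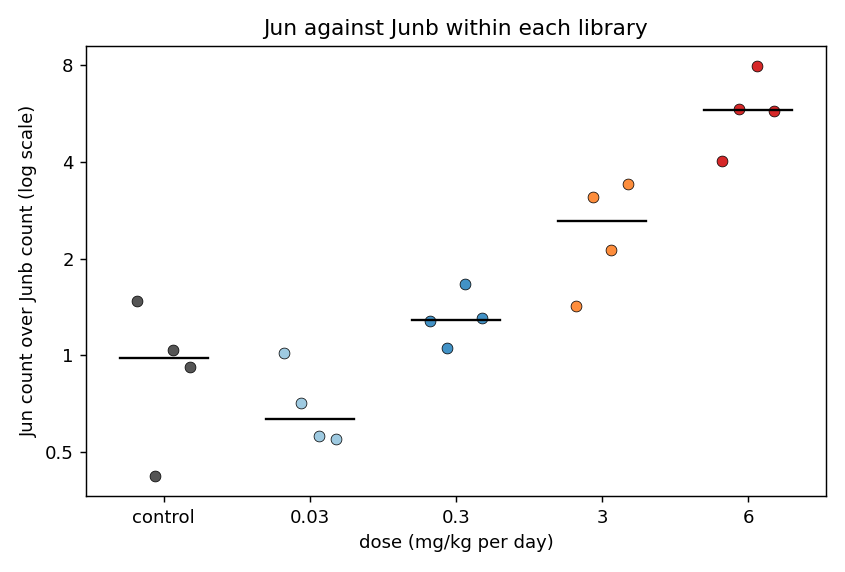
The count of Jun probe 29880 divided by the count of the Junb probe in the same library (vertical axis, log scale) is drawn for each liver by dose in mg/kg per day, with a line at each group's median. The ratio lies between 4.03 and 7.94 in the 4 livers at 6 mg/kg and between 0.421 and 1.48 in the 4 controls.

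Fos and Atf3, the remaining partners, were near the floor of detection. The 2 Fos probes had 11 and 8 counts in all over the 4 libraries at 6 mg/kg, against 3 and 3 in the controls, and no library held more than 5 counts. The ratios after scaling for library size were 3.36 (95% exact counting interval 0.889 to 18.8) and 2.45 (0.587 to 14.3). Neither probe alone thus showed a change of Fos at this depth, and no interval was taken for their sum. These intervals hold for counting error alone, because copies made by PCR are counted as well.

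Atf3, a stress-induced repressor of the ATF family, was counted a little more often, with at most 10 counts in a library. Probe 72119 was at 0.479, 1.09, 1.06 and 0.998 CPM at 6 mg/kg and at 0.374, 0.281, 0.861 and 0.389 CPM in controls, and 1 control lay inside the range of the dosed livers. Its summed counts were 32 at 6 mg/kg and 16 in controls, a ratio of 1.83 (95% exact counting interval 0.978 to 3.58). At 0.03 mg/kg they were 4, a ratio to control of 0.215 (0.0523 to 0.667). The ratio of probe 29935 at 0.03 mg/kg was 2.58 (0.207 to 136), on 3 counts against 1. Probe 29935 was at 0.479, 0.486, 0.354 and 0.200 CPM at 6 mg/kg, against 0, 0, 0.108 and 0 CPM in controls, so every dosed liver lay above every control. The sums were 13 counts at 6 mg/kg and 1 in controls, and the ratio was 11.9 (95% exact counting interval 1.79 to 507). With both probes summed, Atf3 reached 10 counts in 3 libraries at 6 mg/kg, 1 at 3 mg/kg and 0 of the rest. It entered that fit through the groups where it was high and had to differ, so its log2 fold change of 1.32 (edgeR adjusted p = 0.0235 over 10245 symbols, SE 0.40) is a description.

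Egr1 encodes an early zinc finger factor that answers growth factors and feeding. The tested probe lay below every control library from 0.3 mg/kg upwards. It passed the filter only through control and 0.03 mg/kg libraries, where it was high. Its calls and its place below control are therefore a description. Probe 30209 was at 0.719, 0.243, 0.354 and 0.599 CPM at 6 mg/kg, against 2.37, 1.40, 1.29 and 7.13 CPM in controls, with no overlap. This was a log2 fold change of -2.62 (edgeR adjusted p = 0.00641, SE 0.64). In the livers at 3 mg/kg it was at 0.966, 0.225, 0 and 0.286 CPM, also below every control, and the log2 fold change was -2.99 (SE 0.68, edgeR adjusted p = 0.0266). Egr1 and Ier2 were the 2 of 8 probes that lay wholly below control at this dose, as 4.62% of all probes did.

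At 0.3 mg/kg Egr1 was already at 0.594, 0.723, 0.669 and 0.335 CPM, below every control. The log2 fold change there was -2.34 (SE 0.61), close in size to that at 3 and 6 mg/kg, but its edgeR adjusted p was 0.417 and it was not called. Without control replicate 4 it was -1.49 (edgeR adjusted p = 0.495). At 0.03 mg/kg the probe was at 3.32, 3.08, 2.21 and 0.650 CPM, within and below the control range, with a log2 fold change of -0.39 (SE 0.53). The second probe, 58083, was too low for the main test and was at 0, 0.122, 0.118 and 0 CPM at 6 mg/kg, against 0.872, 0.421, 0.430 and 1.43 CPM in controls. Its sums were 2 counts at 6 mg/kg and 25 in controls, a ratio of 0.0734 (95% exact counting interval 0.00842 to 0.294). The high control of both probes was replicate 4. Without it the log2 fold change of probe 30209 was -1.75 (edgeR adjusted p = 0.0545) at 6 mg/kg, and -2.13 (edgeR adjusted p = 0.152) at 3 mg/kg. The call at 3 mg/kg was also lost without 3 mg/kg replicate 2, 3 or 4, at edgeR adjusted p of 0.0786, 0.0752 and 0.0612, with limma-voom (adjusted p = 0.102) and on the 8 libraries alone (edgeR adjusted p = 0.290).

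Ier2 encodes a small nuclear protein that is induced early by growth signals, and its probe held between 149 and 490 counts in each library. It was at 23.0, 19.9, 17.6 and 35.2 CPM at 6 mg/kg, against 58.9, 50.1, 48.1 and 53.9 CPM in controls. The highest dosed liver, replicate 4, still lay below the lowest control. On the log2 scale the fold change was -1.14 (SE 0.18, edgeR adjusted p = 0.000113). The livers at 3 mg/kg were at 36.0, 32.6, 27.5 and 30.1 CPM, all below every control, with a log2 fold change of -0.74 (edgeR adjusted p = 0.0325, SE 0.17).

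Ier2 also lay below every control at both lower doses, where the test did not pass. It was at 46.5, 40.8, 41.0 and 44.3 CPM at 0.3 mg/kg, a log2 fold change of -0.29 (edgeR adjusted p = 0.669, SE 0.17), and at 42.5, 42.3, 39.1 and 31.2 CPM at 0.03 mg/kg, a log2 fold change of -0.44 (edgeR adjusted p = 1.0, SE 0.17). At 0.3 mg/kg Egr1 and Ier2 were the 2 of 8 probes wholly below control, as 3.38% of all probes were, and at 0.03 mg/kg Ier2 was the 1 of 8, as 1.49% of all were. The call at 3 mg/kg depended on the library set: without any 1 control, or without 3 mg/kg replicate 2, 3 or 4, the edgeR adjusted p lay between 0.0555 and 0.136, with log2 fold changes between -0.77 and -0.65. It was lost as well with library totals, with no filter and on the 8 libraries alone (edgeR adjusted p = 0.102, 0.0573 and 0.0716). Between 6 and 3 mg/kg the log2 difference was -0.40 (SE 0.18, edgeR adjusted p = 0.174), and without 6 mg/kg replicate 4 it was -0.67 (edgeR adjusted p = 0.0113). At this contrast 0 of the 8 probes were called lower with all libraries, against 2.77% of all probes, and 6 of the 8 had an unadjusted p under 0.05 in either direction, as 3286 of all 14122 probes did.

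Ier3, an early gene linked to cell survival, was barely counted. Probe 29851 had 5 counts in all at 6 mg/kg and 7 in controls, a ratio of 0.655 (95% exact counting interval 0.164 to 2.40). Probe 76430 had 1 count in all 20 libraries. No direction could be read for Ier3 at this depth.

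Myc, the growth factor-induced regulator of biosynthesis, varied widely between mice of 1 group. Probe 66507 (gene at chr15:61985391-61990374, plus strand, GRCm38) was at 8.87, 23.1, 30.5 and 18 CPM at 6 mg/kg, against 5.73, 2.11, 15.9 and 4.41 CPM in controls. Probe 73941 was at 6.23, 19.1, 24.9 and 17.2 CPM at 6 mg/kg and at 6.10, 3.23, 11.5 and 4.79 CPM in controls. In both, 3 dosed livers lay above every control and replicate 1 lay inside the control range. The log2 fold changes of 1.49 (SE 0.52) and 1.38 (SE 0.52) did not pass, with edgeR adjusted p of 0.0513 and 0.0656.

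The third Myc probe, 30907, had fewer counts and was called. It passed the filter only through libraries of the upper doses, where it was high, so its calls are a description. It was at 1.80, 3.89, 5.31 and 3.69 CPM at 6 mg/kg, against 0.249, 0.421, 0.753 and 0.259 CPM in controls, and the groups did not overlap. The fitted log2 fold change was 3.05 (SE 0.50, edgeR adjusted p = 0.000219). The controls rest on 14 counts in all, against 129 at 6 mg/kg. Summed over its probes, Myc passed at 6 mg/kg with a log2 fold change of 1.57 (edgeR adjusted p = 0.0359, SE 0.51), in a fit that called 22.6% of all 10245 symbols.

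Whether the first 2 Myc probes were called at 6 mg/kg turned on single livers. Without control replicate 3, the highest control, the log2 fold changes were 2.29 and 1.83 (edgeR adjusted p = 0.00462 and 0.0298). Without 6 mg/kg replicate 1 they were 1.73 and 1.65 (edgeR adjusted p = 0.0277 and 0.0269). DESeq2 called both with all libraries, at adjusted p of 0.0170 and 0.0288.

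Below 6 mg/kg no Myc probe was called. In the 3 mg/kg livers probe 66507 was at 3.04, 6.07, 15.5 and 6.85 CPM and probe 30907 at 0.414, 0.562, 1.87 and 1.43 CPM, both overlapping controls. At 0.3 mg/kg probes 66507, 73941 and 30907 lay between 3.58 and 8.71, 2.46 and 10.7, and 0.224 and 0.693 CPM, with log2 fold changes of -0.40, -0.38 and 0.31. In the 0.03 mg/kg livers probe 66507 was at 3.76, 3.08, 3.32 and 1.63 CPM and its log2 fold change was -1.28 (SE 0.57, edgeR adjusted p = 1.0). Probe 30907 was higher at 6 than at 3 mg/kg by 1.79 on the log2 scale (SE 0.45, edgeR adjusted p = 0.0201), and this call was lost without 3 mg/kg replicate 1 or 2 or 6 mg/kg replicate 2 or 3, at edgeR adjusted p between 0.0512 and 0.0875, and on the 8 libraries alone, at 0.141. Without 3 mg/kg replicate 3, the highest liver of that dose, the 6 against 3 mg/kg differences of probes 66507 and 73941 were 1.86 and 1.85 on the log2 scale (edgeR adjusted p = 0.0496 and 0.0439).

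Ccnd1 and Foxm1, the cell cycle genes of the set, were counted too rarely for the main test in adult liver. Ccnd1 probe 80514 (gene at chr7:144929931-144939925, minus strand, GRCm38) was at 0.959, 0.973, 2.36 and 1.70 CPM at 6 mg/kg, against 0.498, 0.140, 0.646 and 0.130 CPM in controls. Probe 31337 was at 0.359, 0.729, 1.18 and 0.599 CPM at 6 mg/kg and at 0, 0.140, 0 and 0.130 CPM in controls. Neither probe overlapped between the groups. Of the 9 low probes of the set with at least 10 counts over these 8 libraries, 3 lay wholly above control, both Ccnd1 probes and Atf3 probe 29935, as 3.91% of all 4982 such probes did, and 1 lay wholly below, Egr1 probe 58083, as 2.79% did. Probe 80514 had 53 counts in all at 6 mg/kg and 12 in controls, a ratio of 4.05 (95% exact counting interval 2.14 to 8.33), and probe 31337 had 25 at 6 mg/kg and 2 in controls, a ratio of 11.5 (2.86 to 99.9).

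Summed over its probes, Ccnd1 reached 10 counts in all 4 libraries at 6 mg/kg, in 1 at 3, 2 at 0.3 and 1 at 0.03 mg/kg, and in 0 controls. It thus entered the summed fit through the dosed groups alone, and its log2 fold change of 2.36 (edgeR adjusted p = 0.00526, SE 0.57) is a description. With no filter on counts, edgeR called both probes separately, at log2 fold changes of 2.00 (SE 0.63, adjusted p = 0.0380) and 3.26 (SE 0.89, adjusted p = 0.0144). That fit called 9 of the set's 19 probes, 5 higher and 4 lower, and 8% of all 28548 probes. In the 3 mg/kg livers probe 80514 was at 0, 0.787, 0.510 and 1.05 CPM and probe 31337 at 0, 0.112, 0.170 and 0.190 CPM, overlapping controls. At 0.3 mg/kg probe 31337 was at 0.297, 0.310, 0.334 and 0.894 CPM, above every control, whereas probe 80514, at 0.396, 0.826, 0.167 and 0.335 CPM, was not.

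Foxm1 probe 69334 had 1, 0, 0, 4 and 10 counts in all in the control, 0.03, 0.3, 3 and 6 mg/kg groups. It was seen in all 4 livers at 6 mg/kg, in 3 of 4 at 3 mg/kg and in 1 control. A count of 0 over the 4 libraries allows up to 3 counts, which equal 0.0803 CPM at 0.03 and 0.0737 CPM at 0.3 mg/kg. The ratio of 6 mg/kg to control was 9.17 (95% exact counting interval 1.31 to 398), and the groups overlapped. Its log2 fold change of 2.73 (SE 1.33) without a filter did not pass (edgeR adjusted p = 0.243). The second probe had 2 counts in all 20 libraries.

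**Figure D4:**
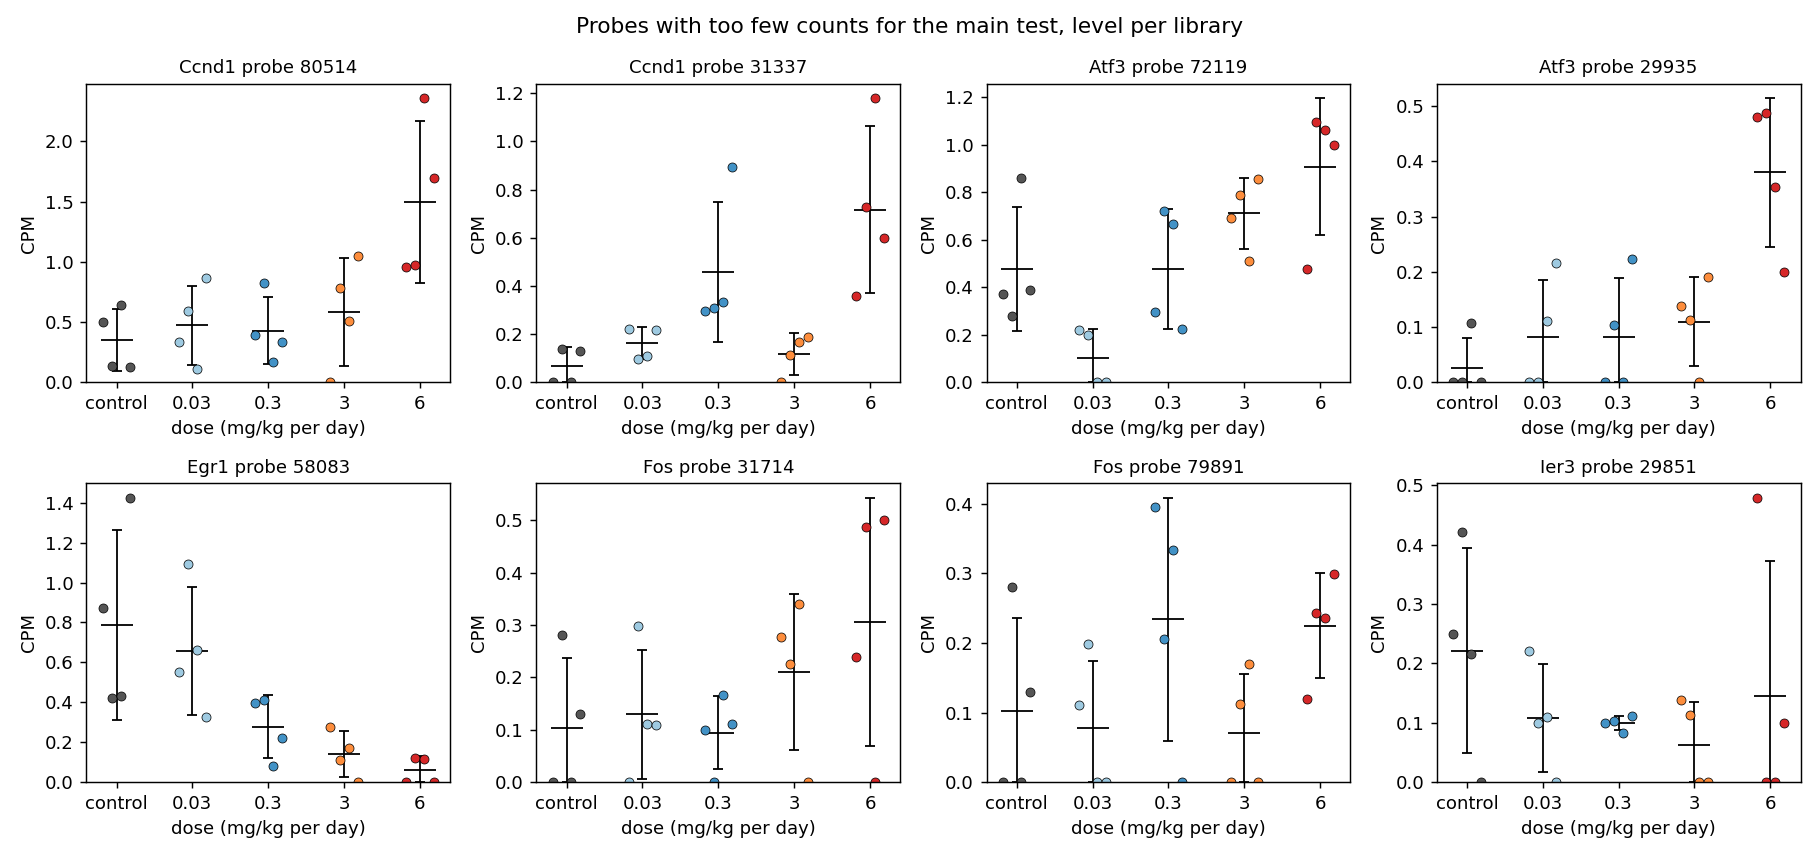
Each panel shows the CPM (vertical axis, own scale) of 1 probe too low for the main test in the 20 livers by dose in mg/kg per day, with points for single livers and bars for the mean ± SD of 4, the lower end stopped at 0. Both Ccnd1 probes and Atf3 probe 29935 lie above every control at 6 mg/kg, Egr1 probe 58083 lies below every control, and Fos and Ier3 hold at most 5 counts in any library.

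A slope over the 5 dose ranks called all 8 tested probes, 5 higher and 3 lower, where 11.3% of all probes had a rising and 6.72% a falling slope. The rising probes belong to Myc and Jun alone. Myc probe 30907 and Egr1 probe 30209 passed the filter only through the groups where they were high, so their slopes are a description. In log2 units for each dose step it was 0.43, 0.40 and 0.89 for Myc probes 66507, 73941 and 30907 (edgeR adjusted p = 0.0280, 0.0362 and 2.61e-05) and 0.28 and 0.39 for Jun probes 29880 and 77116 (edgeR adjusted p = 0.00245 and 0.00502). It was -0.42 for Junb, -0.82 for Egr1 and -0.26 for Ier2 (edgeR adjusted p = 0.000105, 0.000514 and 0.000179). The slope of Myc probe 66507 missed the threshold, at edgeR adjusted p between 0.0520 and 0.0926, without control replicate 2 or without 6 mg/kg replicate 2, 3 or 4. That of Myc probe 73941 missed it, at edgeR adjusted p between 0.0506 and 0.111, without any of these 4 or without 0.03 mg/kg replicate 1, 2 or 3. Both also missed it with no filter (edgeR adjusted p = 0.0682 and 0.0792) and without both libraries that stood apart (edgeR adjusted p = 0.0672 and 0.0855). With plate row as a term 7 of the 8 slopes were no longer called, and that of Myc probe 30907 was (edgeR adjusted p = 0.0434), among 4.27% of all probes.

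At the 2 lower doses edgeR called 0 of the 8 probes, and 0% of all probes at 0.3 mg/kg and 0% at 0.03 mg/kg. At an unadjusted p under 0.05 edgeR counted 1 of the 8 and 1175 of all probes at 0.3 mg/kg, and 4 of the 8 and 457 of all at 0.03 mg/kg. DESeq2 called 28 and 2 of all probes, limma-voom called 0 and 0, and both called 0 of the 8.

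Plate row runs with dose. Only the 0.3 mg/kg group spans both rows, with replicate 4 alone in row B. In the fit with group means the row term thus rests on this liver against the others of its dose, so the values adjusted for row are fragile. With row as a term, 2 of the 8 probes were called at 6 mg/kg, among 3.6% of all probes, Myc probe 30907 with a log2 fold change of 4.49 (edgeR adjusted p = 0.0387) and Ier2 with -1.19 (edgeR adjusted p = 0.0494). The remaining called probes kept their direction without passing, at log2 fold changes of 1.31 and 1.55 for the Jun probes, -1.31 for Junb and -1.67 for Egr1 (edgeR adjusted p = 0.0947, 0.303, 0.169 and 0.598). With row as a term 0 of the 8 were called at 3 mg/kg, where 0.00708% of all probes were, 1 of 14122, and the log2 fold changes of Junb, Egr1 and Ier2 were -0.88, -2.04 and -0.79. The filter limit on Myc probe 30907 and Egr1 probe 30209 holds for these values too. Outside the 0.3 mg/kg group row and dose cannot be told apart.

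Without the 2 libraries that stood apart, the same count of 6 of the 8 was called at 6 mg/kg, among 27.8% of all probes, and 1 of the 8, Ier2, at 3 mg/kg, among 2.58% of all probes. Junb and Egr1 then missed at 3 mg/kg, with log2 fold changes of -1.07 and -2.84 (edgeR adjusted p = 0.0550 and 0.0615).

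Genes around the set were read from lists chosen with earlier results of these data known, so their direction is no independent evidence. Each gene stands by its probe with the highest mean count, and the lists are given by counts and medians with no test of the list. The counts are to be read against the 20.3% of all probes called at 6 mg/kg. Of 35 further immediate-early genes, 19 were tested at 6 mg/kg, where 3 were called higher and 4 lower, with a median log2 fold change of 0.23. Rhob, a small GTPase, was at 9.01 ± 2.19 CPM at 6 mg/kg, against 4.56 ± 1.55 CPM in controls (SD, n = 4 each, log2 fold change 0.98), and Btg1, an inhibitor of proliferation, was at 153 ± 20.7 CPM at 6 mg/kg and 101 ± 8.88 CPM in controls (log2 fold change 0.59). Cyr61, a matrix signalling protein and YAP target, fell by 1.03 on the log2 scale, with 12.0 ± 1.78 CPM at 6 mg/kg and 24.6 ± 7.23 CPM in controls, and Mcl1, a survival protein of the BCL2 family, fell by 0.96, with 52.7 ± 11.3 CPM at 6 mg/kg and 102 ± 22.8 CPM in controls. None of the 19 was called at 3 mg/kg.

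Upstream, 37 genes of the MAPK and SRF pathways that switch on immediate-early genes were listed and 32 tested. At 6 mg/kg 2 were called higher and 4 lower, with a median log2 fold change of 0.07. These are 18.8% of the 32, near the 20.3% of all probes, so the count is no result about these pathways, and the genes named are single calls. Mkl2, a cofactor of SRF, rose (log2 fold change 1.49, SE 0.24, edgeR adjusted p = 0.000167), as did the kinase Map2k1 (0.92, SE 0.32, edgeR adjusted p = 0.0470). Among the 4 that fell were Egfr, the epidermal growth factor receptor of hepatocytes, at 73.4 ± 22.6 CPM at 6 mg/kg and 167 ± 38.0 CPM in controls (log2 fold change -1.19), and Hgf, the hepatocyte growth factor, at 30.2 ± 13.0 CPM at 6 mg/kg and 71.4 ± 9.34 CPM in controls (log2 fold change -1.24). None of the 32 was called at 3 mg/kg.

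Around and downstream of Myc, 2 lists were read. Of 15 partners and antagonists of MYC, 11 were tested and 1 was called at 6 mg/kg, Mlxipl, the sugar-sensing factor ChREBP, with a log2 fold change of 1.61 (edgeR adjusted p = 0.0117, SE 0.42). Of 35 known MYC targets, 30 were tested, and 11 were called higher and 2 lower, with a median log2 fold change of 0.35. Tfrc, the transferrin receptor, was at 250 ± 68.4 CPM at 6 mg/kg and 53.7 ± 13.1 CPM in controls (log2 fold change 2.22) and Odc1, the first enzyme of polyamine synthesis, was at 16.0 ± 1.91 CPM at 6 mg/kg and 6.62 ± 0.783 CPM in controls (log2 fold change 1.27). Rcl1, a ribosomal RNA processing factor, and Shmt1, an enzyme of the folate cycle, fell by 1.13 and 0.59 on the log2 scale. Of the 30, 1 was called at 3 mg/kg, Tfrc, with a log2 fold change of 1.07 (edgeR adjusted p = 0.0298, SE 0.25).

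Next to Ccnd1, 29 genes of the cyclin D, RB and E2F step were listed and 17 tested, of which 4 were called higher and 2 lower at 6 mg/kg, with a median log2 fold change of 0.22. Ccne2, cyclin E2, was at 10.8 ± 1.46 CPM at 6 mg/kg and 3.17 ± 0.695 CPM in controls (log2 fold change 1.78), and at 3 mg/kg it was the 1 of 17 called (log2 fold change 1.40, SE 0.25, edgeR adjusted p = 0.00353). Tfdp1, an E2F partner, rose by 0.81 on the log2 scale, while E2f5 and Tfdp2 fell by 0.93 and 0.85. Cdkn1a, the p21 inhibitor of cyclin-dependent kinases, rose by 2.79, and was named after its value was seen.

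Of 25 known FOXM1 targets, 23 were tested, and 21 rose and 0 fell at 6 mg/kg, with a median log2 fold change of 3.46. Kif20a, a kinesin of cytokinesis, was at 59.0 ± 20.4 CPM at 6 mg/kg and 3.33 ± 0.745 CPM in controls (log2 fold change 4.14, SE 0.31, edgeR adjusted p = 2.21e-08) and Cenpf, a kinetochore protein, at 13.8 ± 3.05 CPM at 6 mg/kg and 0.780 ± 0.0436 CPM in controls (log2 fold change 4.12, SE 0.30, edgeR adjusted p = 1.43e-08). At 3 mg/kg 12 rose and 0 fell, with a median of 2.03. At 0.3 and 0.03 mg/kg edgeR called 0 of the 23, and the medians were -0.03 and -0.24. Genes silent in control liver could pass the count filter only through the upper doses, so these counts are a description. Foxm1 itself had 10 counts in all at 6 mg/kg.

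Beside Atf3, 18 genes of the ATF4 and stress branch were listed and 12 tested, of which 3 were called higher and 2 lower at 6 mg/kg, with a median log2 fold change of 0.20. Trib3, a pseudokinase induced by ATF4, and Vldlr, a lipoprotein receptor, rose by 1.77 and 2.11 on the log2 scale. Fgf21, a fasting hormone, and Atf4 fell by 3.68 and 0.68. Vldlr had 31 counts in all in controls. Fgf21 was at 0.169 ± 0.151 CPM at 6 mg/kg, under the level of 3 counts in a single library, and at 2.36 ± 2.12 CPM in controls (SD, n = 4 each). The size of its fall is therefore poorly fixed. Of 12 heat shock genes 11 were tested and 2 rose, or 18.2%, again near the share of all probes, Hsp90aa1 by 1.79 and Hsp90ab1 by 0.72. None of these was called at 3 mg/kg.

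**Figure D5:**
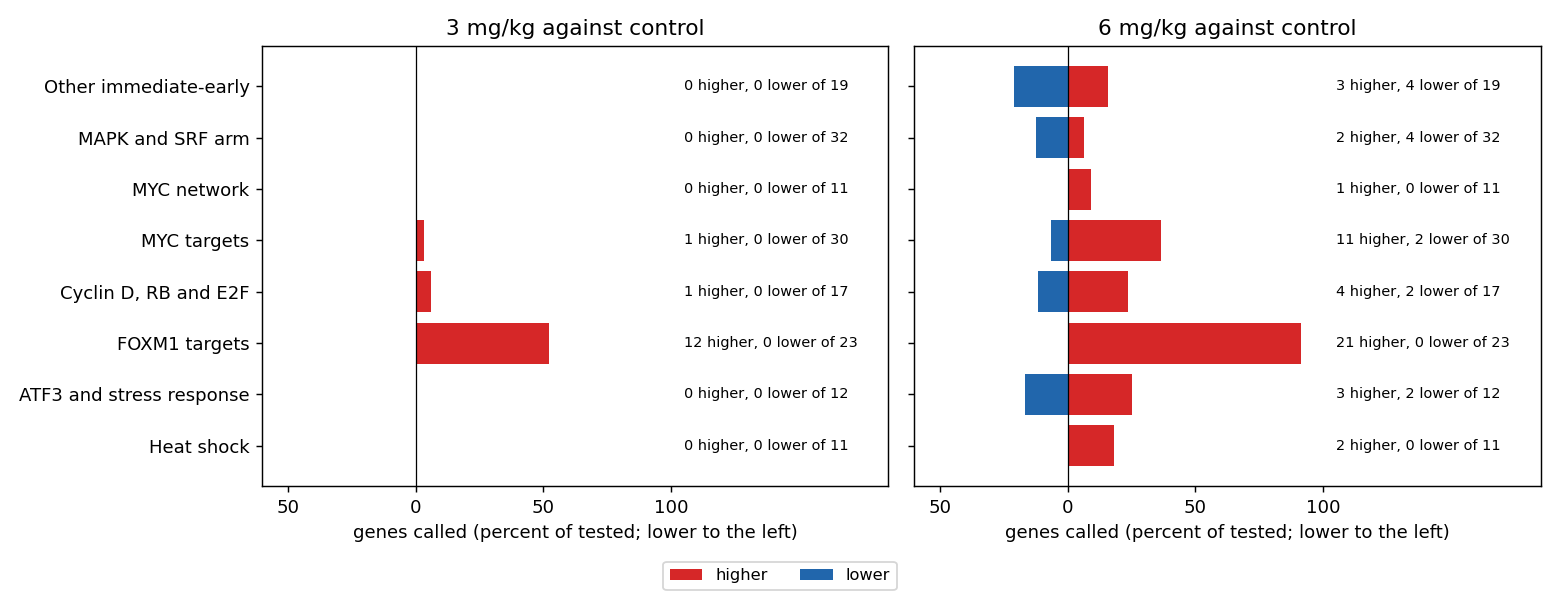
For each list, the percent of its tested genes called higher (right of 0) and lower (left of 0) by edgeR at an adjusted p under 0.05 is drawn for 3 and 6 mg/kg against control, with the counts beside each bar. FOXM1 targets have 12 of 23 called at 3 mg/kg and 21 of 23 at 6 mg/kg, all higher, and the further immediate-early genes have calls in both directions at 6 mg/kg.

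The liver holds cells other than hepatocytes that express immediate-early genes, and in bulk tissue fewer cells of a type and less RNA in each cell cannot be told apart. The summed level of 14 Kupffer cell markers ran from 101 to 158 CPM at 6 mg/kg and from 152 to 218 CPM in controls. Of 10 tested 2 fell, C1qb by 1.18 and Lyz2 by 0.99 on the log2 scale, with a median of -0.47. These are 20%, near the share of all probes called. C1qb was the most counted of the markers. Summed over its probes, it averaged 42.1 CPM at 6 mg/kg and 80.7 CPM in controls. The 14 lymphocyte and neutrophil markers summed to between 47.3 and 74.2 CPM at 6 mg/kg, against 23.5 to 48.0 CPM in controls. S100a8, a neutrophil protein, summed over its probes averaged 47.1 ± 10.1 CPM at 6 mg/kg and 1.60 ± 1.02 CPM in controls (SD, n = 4 each), and the other 13 summed to between 14.1 and 24.3 CPM at 6 mg/kg and 22.3 and 44.8 CPM in controls. The other neutrophil markers averaged lower at 6 mg/kg than in controls. S100a9 was at 0.463 CPM at 6 mg/kg and 0.876 CPM in controls, and Ly6g at 0.767 and 1.59 CPM. Csf3r, near the floor, was at 0.0250 and 0.0662 CPM. Ptprc, the leukocyte common antigen, summed over its probes averaged 13.3 ± 3.62 CPM at 6 mg/kg and 22.0 ± 6.04 CPM in controls. Of 7 tested, 1 rose, S100a8 by 4.92, and 2 fell, Nkg7 among them by 1.32, with a median log2 fold change of -1.06, and Klrb1c was at 0 in all 20 libraries. The 12 stellate cell markers summed to between 164 and 223 CPM at 6 mg/kg and 279 and 327 CPM in controls. Of 11 tested 5 fell, Dcn by 1.17 and Hgf among them, and Col1a1 was called higher by 2.07 (SE 0.51, edgeR adjusted p = 0.00772). Col1a1 was at 13.18 ± 14.05 CPM at 6 mg/kg and 3.13 ± 1.48 CPM in controls (SD, n = 4 each). Its SD at 6 mg/kg exceeded its mean, so the livers of that group differed widely and the size of the rise is poorly fixed.

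Endothelial, cholangiocyte and erythroid sums overlapped between the groups, and hepatocyte sums did not. The 11 endothelial markers summed to between 178 and 217 CPM at 6 mg/kg, against 169 to 180 CPM in controls, with 1 of 10 tested called, Pecam1, higher by 1.20 on the log2 scale. The 7 cholangiocyte markers summed to between 43.0 and 67.9 CPM at 6 mg/kg and 52.6 and 64.7 CPM in controls, with 0 of the 1 tested called. The 8 erythroid markers summed to between 24.2 and 44.1 CPM at 6 mg/kg and 24.4 and 54.7 CPM in controls, with 1 of 3 tested called, Alas2, higher by 1.21, and Epb42 at 0 in all libraries. The 10 hepatocyte markers summed to between 24126 and 30514 CPM at 6 mg/kg, against 38297 to 46279 CPM in controls. Of 10 tested Tat rose by 1.20 and 3 fell, Alb by 0.82 and Cyp2e1 by 0.81 among them, with a median log2 fold change of -0.20. The sum largely followed these 2 genes. Cyp2e1, summed over its probes, averaged 9774 CPM at 6 mg/kg and 16081 CPM in controls, and Alb 6047 and 10667 CPM. The part of these shifts in the values of the set was not tested.

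Last, the genes whose pattern over the 20 livers was most like each member were found by the root mean square difference of centred log2 CPM among 8686 probes with a mean of at least 5 CPM. Closest to Jun probe 29880 were Hist1h2bp, a histone gene whose reads may be shared with near copies, and Trp53inp1, a p53-induced gene, at differences of 0.294 and 0.296, where the median probe was at 0.653. Closest to Junb were Glul, glutamine synthetase of pericentral hepatocytes, and Bhlhe40, a circadian repressor, at 0.325 and 0.332 against a median of 0.762. Glul was at 12.6 ± 3.00 CPM at 6 mg/kg and 36.9 ± 12.7 CPM in controls (SD, n = 4 each), and Trp53inp1 was at 103 ± 22.1 CPM at 6 mg/kg and 42.5 ± 4.14 CPM in controls.

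Ier2 had St6galnac6, a sialyltransferase, and Fam89b closest, at 0.215 and 0.223 against a median of 0.562. Egr1 probe 30209 had Wdr91 and Calu, a calcium-binding protein of the secretory pathway, at 0.875 and 0.910 against 1.23. Myc probe 66507 had Gstm3, a glutathione transferase, and St5 at 0.676 and 0.682 against 1.16. These differences were larger for the neighbours of Egr1 and Myc than for those of Ier2, Jun and Junb.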

How the data were processed

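The deposited table holds unnormalized counts for each probe in 20 libraries, 1 for each mouse; its values are whole and its column totals differ. Bowtie and the build GRCm38.p5 were used per the submitters' processing notes. For the Bowtie version and the counting settings, none is given in the sources used here. All columns matched a sample, and no pair of libraries in a group agreed within sampling noise (30 pairs, lowest chi-square over its degrees of freedom 3.66). Probes were kept by filterByExpr in edgeR 4.0.16 under R 4.3.3 (about 10 counts in at least 4 libraries), leaving 14122 probes of 10101 symbols with 99.8% of the counts. Libraries were scaled by TMM, and a robust quasi-likelihood model with 1 mean per group was fitted to all 20. Each dose was compared with control and the top dose with 3 mg/kg. A slope over the rank of the dose was also fitted, with Benjamini-Hochberg adjustment over all probes of a comparison and a threshold of 0.05. CPM use the scaled library sizes. Probes that failed the filter are given as summed counts with an exact 95% interval of their ratio.

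The members and gene lists were chosen with earlier results of these data known. Named are every probe of the 10 members, up to 2 genes for each list and direction with the smallest p at 6 mg/kg, and the 2 genes most like each called member. Cdkn1a, Ptprc, S100a9, Ly6g, Csf3r and the markers at 0 were named outside this rule, after their values were seen. A marker gene that the rule names is not reported here. Promoters are RefSeq's for GRCm38.p6, and gene positions are GENCODE M21's for GRCm38. Alternatives were other scalings and filters, DESeq2 1.42.0, limma-voom in limma 3.58.1, a fit that is not robust, dose in mg/kg, probes summed for each symbol, the 8 libraries of a comparison alone, plate row as a term, the fit without both libraries that stood apart, and each library left out in turn. The functions were checked on simulated counts of 13578 probes, for 6 mg/kg against control. There edgeR recovered 5 of 64 changes of 1.5-fold, 30 of 65 of 2-fold and 55 of 62 of 4-fold. Of its 95 calls 5 were false. Small changes were thus mostly missed in the simulation.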

Additional observations from a re-analysis of the deposited data

Results flagged for a closer look

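Myc probe 73941 stood at 10.7 CPM in replicate 1 of the 0.3 mg/kg group, far from the other 3 livers of that dose, which ran from 2.46 to 3.84 CPM. The gap to the nearest liver was 0.832 of the group's whole range, just over Dixon's critical value for 4 samples. It was 1 flag among 40 groups checked, where chance gives about 1 in 20.

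Of the 11 probes that failed the count filter of the main test, 3 lay wholly above control at 6 mg/kg and are given here for that reason. The ratio of scaled summed counts was 11.9 for Atf3 probe 29935, 4.05 for Ccnd1 probe 80514 and 11.5 for Ccnd1 probe 31337, and in each the 4 dosed livers lay above the 4 controls. Among all probes that failed the filter with at least 10 counts over these 8 libraries, 3.91% lay so. The other Atf3 probe, 72119, overlapped, at a ratio of 1.83 (95% exact counting interval 0.978 to 3.58).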

How the results depend on the processing

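The number of the 8 tested probes called for 6 mg/kg against control was 6, and 2 with plate row as a term; over single left-out libraries it ran from 5 to 9 (of 8 or 9 probes tested). For 3 mg/kg against control it was 3, and 1 with limma-voom, 0 on the 8 libraries alone, 0 with plate row, 1 without both libraries that stood apart, and 0 to 3 over single left-out libraries. For 6 against 3 mg/kg it was 2, and 0 on the 8 libraries alone, 1 with probes summed, 4 without both of these, and 0 to 3 over left-out libraries. The slope called 8, and 1 with plate row, 6 without both of these and 6 to 9 over left-out libraries. Causes were not tested. For 0.3 and 0.03 mg/kg it was 0 throughout.

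All reversed signs belonged to changes that had not been called. The log2 fold change of Jun probe 77116 was 0.015 at 0.03 mg/kg with library totals and -0.25 at 3 mg/kg without both of these, Myc summed over its 3 probes gave -0.34 at 0.3 mg/kg, where probe 30907 alone gave 0.31, and Myc probe 73941 gave -0.041 at 3 mg/kg with limma-voom. Over left-out libraries the ranges that crossed 0 at 0.03 mg/kg were -0.65 to 0.46 for Egr1 probe 30209, -0.19 to 0.19 for Jun probe 77116, -0.29 to 0.052 for Junb and -0.71 to 0.16 for Myc probe 30907. At 0.3 mg/kg they were -0.044 to 0.42 for Jun probe 29880, -0.72 to 0.40 for Myc probe 66507 and -1.07 to 0.069 for Myc probe 73941. At 3 mg/kg they were -0.24 to 0.81 for Jun probe 77116, -0.36 to 0.93 for Myc probe 66507 and -0.46 to 0.54 for Myc probe 73941.

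Scaling by library totals moved the median log2 fold change of all probes at 6 mg/kg to 0.15, against 0.01. Among list counts at 6 mg/kg, FOXM1 targets called ran from 20 to 22, endothelial markers went to 2 without both libraries that stood apart, erythroid markers to 0 with no filter or upper quartile scaling, and lymphocyte and neutrophil markers to 1 with library totals or no filter. Depth limits Fos, Ier3 and Foxm1, which had at most 11 counts for each probe over a group. No paired analysis was possible because each library is from a different mouse. The labels carry no replicate numbers, and those used here follow the order of the wells within a group.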
